A study of Homo sapiens with 8 samples.

Results

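The 8 genes TCP1, CCT2, CCT3, CCT4, CCT5, CCT6A, CCT7 and CCT8 encode the subunits of the CCT chaperonin (also called TRiC) that are made in most cells, and were chosen by name, as the subunits of 1 complex, out of 23193 genes in the table. CCT is a cytosolic folding machine built of paired rings. Each ring holds a copy of every subunit, and actin and tubulin are its best known clients, which enter the central cavity and fold there in cycles of ATP binding and hydrolysis. Since all subunits are needed in equal number in the finished ring, the genes are known for being expressed together, and proliferating tumour cells make the complex in quantity. TCP1 encodes subunit alpha, CCT2 beta, CCT3 gamma, CCT4 delta, CCT5 epsilon, CCT6A zeta, CCT7 eta and CCT8 theta.

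Transcription of these genes was followed by PRO-seq (precision run-on sequencing), in which engaged RNA polymerases in isolated nuclei extend their transcripts in the presence of biotinylated nucleotides, so that the reads mark polymerases at work and not the stock of mRNA. The cells were HCT116, an established colorectal carcinoma line, either wild-type (WT) or HIF1A-/-, an HCT116 derivative in which exons 3 and 4 of HIF1A were disrupted by homologous recombination. HIF1A encodes the oxygen-regulated subunit of the transcription factor HIF1. Both genotypes were kept in normoxia or held at 1% O2 for 90 min, every culture received the vehicle DMSO, and each of the 4 groups had 2 libraries, numbered replicate 1 and replicate 2. Per the study's methods the replicates were independent preparations of nuclei. The effect of the deletion was seen through 1 derived line, which cannot be told apart from other differences between the lines.

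The libraries held 18125234 to 23622392 gene body reads and 2783581 to 5966348 reads in TSS regions, and the share of reads in TSS regions was 11.2% and 12.9% in replicate 1 of the HIF1A-/- normoxia and hypoxia groups and 16.9% to 20.2% in the other libraries. Gene body signal over HIF1A was between 130 and 175 normalised CPM, counts scaled to a fixed library total, in all 8 libraries, a level that does not check the genotype because the disruption leaves the rest of the locus in place. PDK1, a HIF1A target that inhibits pyruvate dehydrogenase, went from 31.9 and 39.1 normalised CPM in WT normoxia to 205 and 255 in WT hypoxia, against 20.3 and 25.5 and then 27.4 and 29.1 in HIF1A-/- cells. All 8 of 8 epithelial markers lay at or above 1 CPM in every library, their summed level running from 842 to 1328 CPM. Of the markers of other cell types, 0 of 4 for leukocytes, 2 of 5 for fibroblasts and 1 of 3 for endothelium did so, with sums of 0.717 to 1.68, 20.8 to 58.2 and 8.14 to 28.02 CPM. The epithelial, fibroblast and endothelial sums were all higher in replicate 2 than in replicate 1 of each group and, within each genotype and replicate number, in hypoxia than in normoxia, the opposite of the CCT genes below, and their part in the result was not tested.

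Each gene was counted over 2 regions: the TSS region, which spans 50 bases upstream to 500 downstream of the annotated start and holds the promoter-proximal polymerases, and the gene body, which runs from just past the first 1000 bases to the end of the gene and holds elongating ones. On GRCh37 (hg19) coordinates the CCT gene bodies are spread over 7 chromosomes. They lie at chr6:160199529-160209734 on the minus strand for TCP1, chr12:69980208-69995357 on the plus strand for CCT2, chr1:156278751-156307205 on the minus strand for CCT3 and chr2:62095261-62114805 on the minus strand for CCT4. CCT5 is at chr5:10251649-10266524 on the plus strand, CCT6A at chr7:56120378-56131682 on the plus strand, CCT7 at chr2:73462364-73480150 on the plus strand and CCT8 at chr21:30428642-30445117 on the minus strand. Most of each counted body is intron, since exons of the gene's own transcripts make up between 10.5% of it in CCT4 and 39.0% in TCP1. The introns of TCP1 hold the small nucleolar RNA genes SNORA20 and SNORA29 on the same strand, and those of CCT6A hold SNORA22 and SNORA15, whose reads fall within the counted bodies. CCT6A also has near-identical processed and duplicated copies, of which CCT6P1 and CCT6P3 are counted separately at 28.1 to 44.1 and 43.5 to 53.3 normalised CPM. Reads of CCT6A that match a copy equally well could be lost to the filter on mapping quality.

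The RefSeq promoter table, on GRCh38.p14, held an entry for 7 of the 8 genes, all but CCT6A. For CCT2 and CCT4, with 2 entries each, the one nearest to the counted start was taken. Each entry runs from 250 bases before to 50 after the RefSeq start, and all 7 sequences occur once in the GRCh37 chromosome of their gene, with the counted start 0 to 149 bases from the RefSeq one and inside the printed window. A CCAAT box (CCAAT, searched on both strands) was found in 4 of the 7, TCP1, CCT2, CCT3 and CCT8, against 34.6% of all 35116 promoters of that length. Only these 4 are printed, because they hold a CCAAT box, and a link of the box to the gene body signal was not tested. Capitals mark CCAAT or its reverse complement and, in CCT2, the ETS core CCGGAAG in reverse complement.
TCP1, chr6:159789553-159789852, minus strand: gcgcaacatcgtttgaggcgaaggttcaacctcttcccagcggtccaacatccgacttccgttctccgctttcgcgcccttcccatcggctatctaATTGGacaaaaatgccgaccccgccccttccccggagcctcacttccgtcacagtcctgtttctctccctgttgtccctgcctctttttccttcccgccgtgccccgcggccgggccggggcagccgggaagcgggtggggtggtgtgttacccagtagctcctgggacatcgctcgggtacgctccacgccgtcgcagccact
CCT2, chr12:69585209-69585508, plus strand: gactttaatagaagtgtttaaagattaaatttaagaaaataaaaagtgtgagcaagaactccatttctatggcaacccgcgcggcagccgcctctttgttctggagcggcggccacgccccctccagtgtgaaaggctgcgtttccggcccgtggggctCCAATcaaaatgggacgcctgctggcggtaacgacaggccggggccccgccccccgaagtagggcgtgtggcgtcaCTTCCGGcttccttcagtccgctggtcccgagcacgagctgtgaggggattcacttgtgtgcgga
CCT3, chr1:156338243-156338542, minus strand: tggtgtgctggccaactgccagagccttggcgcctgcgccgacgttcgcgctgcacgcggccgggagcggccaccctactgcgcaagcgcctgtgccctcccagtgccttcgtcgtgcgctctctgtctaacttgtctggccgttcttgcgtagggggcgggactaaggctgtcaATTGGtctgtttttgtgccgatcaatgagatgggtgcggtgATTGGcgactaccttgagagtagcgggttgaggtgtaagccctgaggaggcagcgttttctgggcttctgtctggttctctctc
CCT8, chr21:29073599-29073898, minus strand: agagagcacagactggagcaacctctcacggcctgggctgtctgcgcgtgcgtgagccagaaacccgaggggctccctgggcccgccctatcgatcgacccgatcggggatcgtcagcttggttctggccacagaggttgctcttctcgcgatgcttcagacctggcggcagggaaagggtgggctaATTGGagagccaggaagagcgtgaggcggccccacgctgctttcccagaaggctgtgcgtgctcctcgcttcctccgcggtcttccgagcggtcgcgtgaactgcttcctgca
The ETS core CCGGAAG was in 1 of the 7 windows, against 10.3% of all promoters. The core of the hypoxia response element was searched in both its forms on both strands. ACGTG was in 0 of 7 CCT windows and 21.4% of all promoters, and GCGTG in 5 of 7 and 36.5%. Of the heat shock element, the inverted pair GAANNTTC was in 1 of 7, TCP1, and in 6.77% of all promoters, and TTCNNGAA in 0 of 7 and 7.74%. The E-box CACGTG was in 0 of 7 and 7.26%, and TATAAA in 0 of 7 and 11.5%. GC content of the 7 windows ran from 57.7% to 64.3%, with a median of 58.7% over all promoters. These matches describe letters only, and no binding was measured here.

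The density of gene body reads differed by at most 2.07 times between subunit genes of a library. Expressed as RPKM, gene body reads scaled both to the library's total and to the length of the region, so that genes of different length can be compared, the median over the 8 libraries was 10.6 for CCT6A, 9.92 for CCT5, 8.06 for TCP1, 7.91 for CCT3, 7.07 for CCT4, 6.72 for CCT2, 6.34 for CCT8 and 5.60 for CCT7. CCT6A or CCT5 was the highest and CCT7 the lowest in every library, and the highest member stood 1.80 to 2.07 times above the lowest within a library. The coefficient of variation over the 8 subunits was 20.5% to 24.3% per library. In that order, CCT5 lay above TCP1, CCT2 above CCT8 and CCT8 above CCT7 in 8 of 8 libraries. The remaining neighbours changed places in at least 1 library. CCT6A lay above CCT5 and CCT3 above CCT4 in 7 of 8, and TCP1 above CCT3 and CCT4 above CCT2 in 5 of 8. These orders were not tested, and the 8 libraries span 4 groups. Even CCT7 had a higher density of reads than 84.0% to 92.7% of all tested gene bodies.

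**Figure D1:**
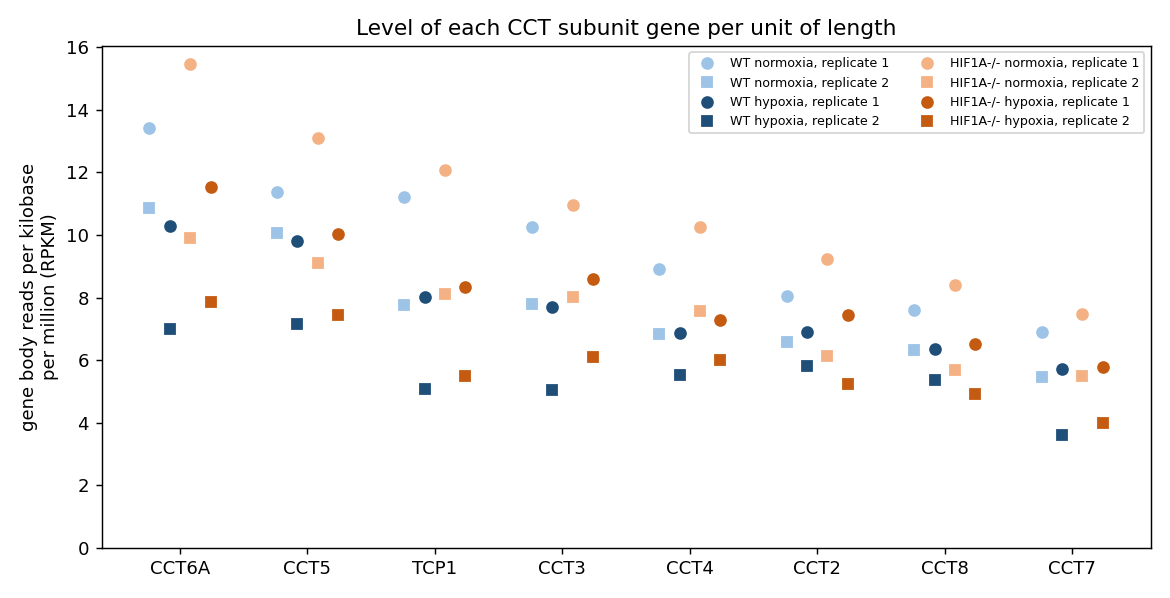
Gene body RPKM (reads scaled to library total and region length, y axis) of the 8 CCT subunit genes (x axis, ordered by median) in each of the 8 libraries, 1 point a library, with circles for replicate 1 and squares for replicate 2. CCT6A and CCT5 sit at the top and CCT7 at the bottom, and for every gene the squares lie below the circles of the same group.

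Gene body signal of all 8 subunit genes was lower after 90 min at 1% O2 in both genotypes. In WT cells the summed signal of the 8 genes was 1140 ± 187 normalised CPM (SD, n = 2) before and 869 ± 197 after hypoxia. In HIF1A-/- cells it was 1203 ± 301 before and 926 ± 210 after. Here normalised CPM are relative to the library's own total of gene body reads after scaling with TMM factors (0.950 to 1.05), that is, shares of a library and not absolute amounts. Fewer transcribing cells and less transcription per cell cannot be told apart in such bulk samples.

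TCP1, whose product is subunit alpha, was at 115 and 79.1 normalised CPM in replicates 1 and 2 of WT normoxia and at 81.7 and 51.7 in WT hypoxia. In HIF1A-/- cells it went from 123 and 82.8 to 85.0 and 56.2. Each hypoxia library thus lay below the normoxia library with the same number, while replicate 2 of normoxia lay below replicate 1 of hypoxia, so the groups overlap in both genotypes. CCT3, subunit gamma and the gene with the most reads, had 292 and 222 in WT normoxia against 219 and 144 in WT hypoxia, and 312 and 228 against 245 and 174 in HIF1A-/- cells. In WT cells the CCT3 groups did not overlap, and in HIF1A-/- cells they did. CCT6A, subunit zeta, was at 152 and 123 in WT normoxia and 116 and 79.1 in WT hypoxia, and at 175 and 112, then 130 and 88.7, in HIF1A-/- cells. Its groups too were separate in WT and overlapped in HIF1A-/- cells. For CCT7, subunit eta, the values were 123 and 97.0 against 102 and 63.9 in WT, and 133 and 97.4 against 103 and 71.2 in HIF1A-/- cells. CCT4, subunit delta, had 174 and 133 against 134 and 108 in WT, and 200 and 148 against 142 and 117 in HIF1A-/- cells. These last HIF1A-/- values are the only ones among the 8 genes in which both hypoxia libraries lay below both normoxia libraries in that genotype.

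The remaining subunits lay lower in hypoxia too. CCT5, subunit epsilon, was at 169 and 150 normalised CPM in WT normoxia against 146 and 107 in WT hypoxia, without overlap, and at 195 and 136 against 149 and 111 in HIF1A-/- cells. CCT8, subunit theta, had 125 and 104 against 105 and 88.3 in WT and 138 and 93.6 against 107 and 80.9 in HIF1A-/- cells. CCT2, subunit beta, had 122 and 99.5 against 104 and 87.8 in WT and 140 and 92.9 against 113 and 79.2 in HIF1A-/- cells. Over all genes tested, both hypoxia libraries lay below both normoxia libraries at 19.4% of gene bodies in WT, against 3 of 8 CCT genes, and at 11.3% in HIF1A-/- cells, against 1 of 8. Counts per library behind these values were 1197 to 6511 reads a gene.

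**Figure D2:**
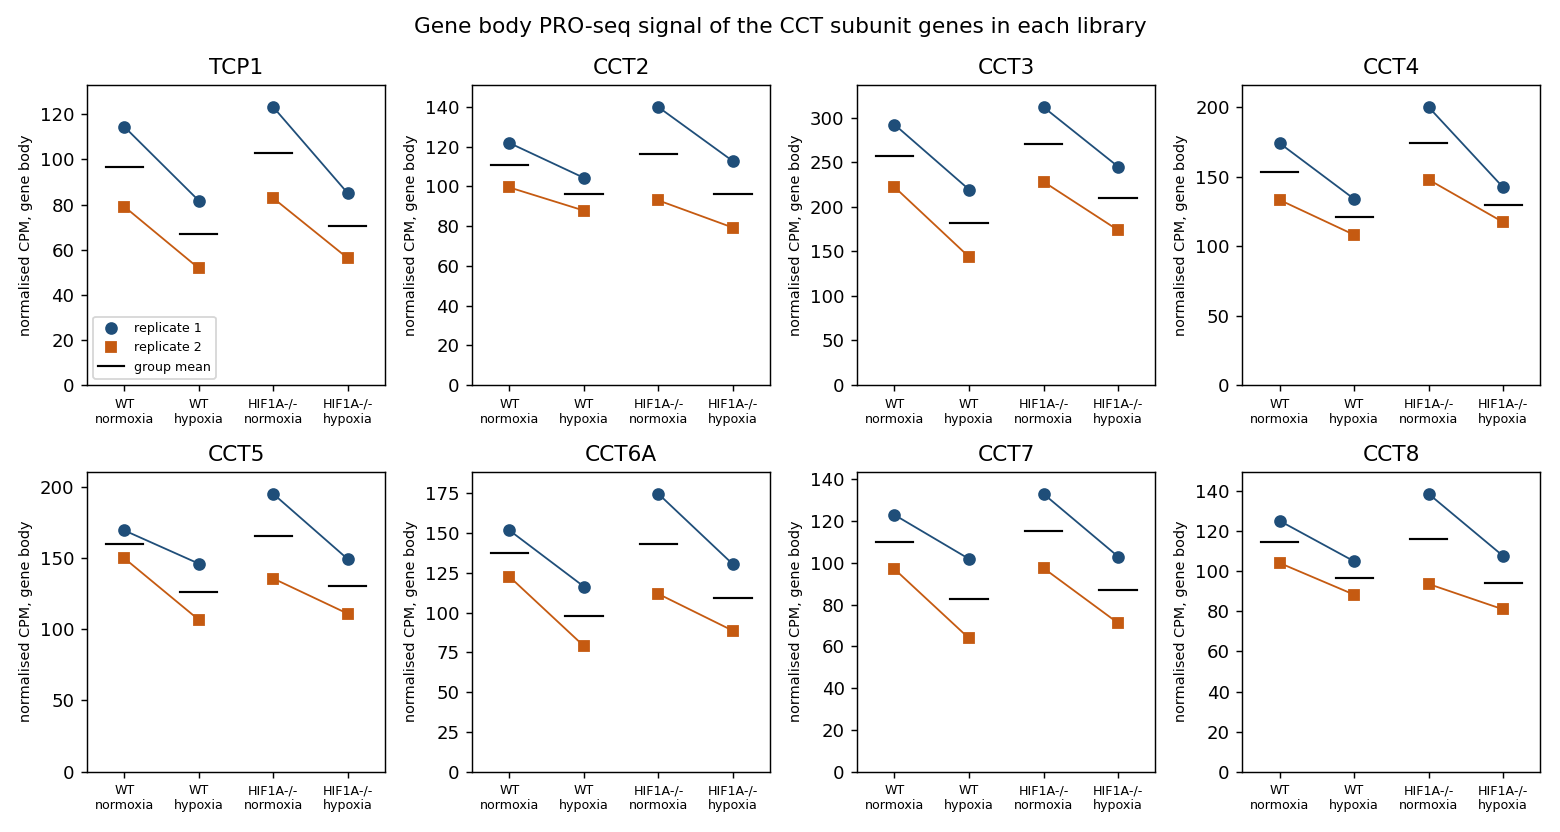
Gene body signal in normalised CPM (y axis, from 0) of each CCT subunit gene in the 4 groups (x axis), 1 point a library, with lines joining the normoxia and hypoxia libraries of the same genotype and replicate number and bars at the group means. Every line slopes down, and the replicate 2 line lies below the replicate 1 line in all 8 panels.

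The 2 libraries of a group differed as much as the conditions did. Replicate 2 was below replicate 1 for 8 of 8 CCT genes in all 4 groups, which was so for 25.8% of all gene bodies. The median of that difference over the 8 genes, as log2 of replicate 2 over replicate 1, was -0.32 and -0.51 in the WT normoxia and hypoxia groups and -0.54 and -0.50 in those of HIF1A-/- cells, while the median over all genes lay between -0.00398 and 0.0193. For TCP1 the mean difference was -0.59 between replicates and -0.55 between conditions, and for CCT8 -0.37 and -0.27.

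Within pairs of libraries with the same number, hypoxia was below normoxia for 8 of 8 CCT genes in all 4 pairs, against 21% of all gene bodies. Median log2 differences over the 8 genes were -0.32 and -0.55 in the WT pairs and -0.38 and -0.33 in the HIF1A-/- pairs, beside medians of 0.00353, -0.03, 0.00205 and -0.00125 over all genes. The smallest difference of a single CCT gene was -0.18, for CCT2 in WT replicate 2, and the largest -0.63, for CCT6A in the same pair. The lower signal in hypoxia was thus shared by all subunits in every pair.

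**Figure D3:**
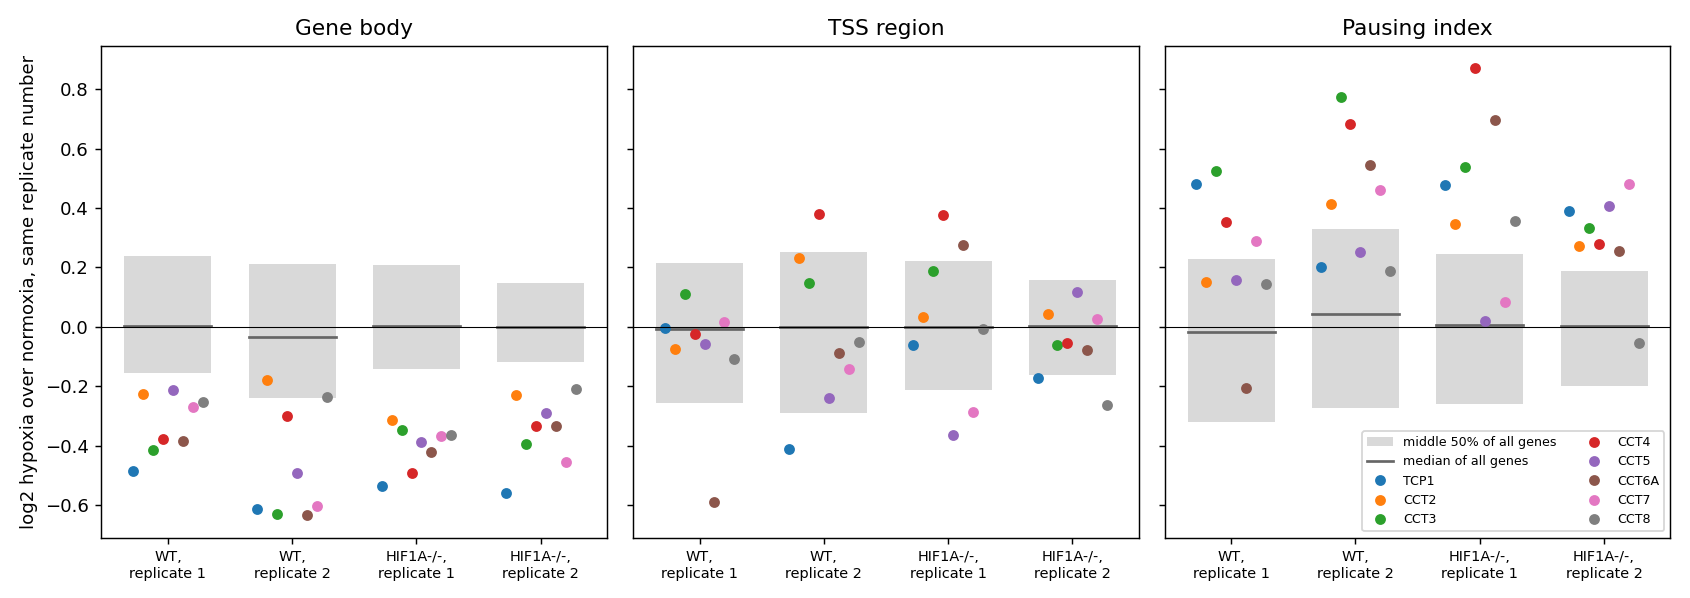
Log2 of hypoxia over normoxia (y axis) within each pair of libraries with the same replicate number (x axis), for the gene body, the TSS region and the pausing index, 1 coloured point a CCT subunit gene, with grey boxes for the middle 50% of all tested genes and a grey line at their median. In the gene body all points lie below 0 in all 4 pairs, in the TSS region they scatter around 0, and in the pausing index all but 2 points lie above 0.

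The edgeR quasi-likelihood fit over all genes, without a term for the replicate number, gave log2 fold changes in WT from -0.20 in CCT2 to -0.54 in TCP1, and in HIF1A-/- cells from -0.28 in CCT2 to -0.55 in TCP1. It called 0 of 8 CCT genes in either genotype at an edgeR adjusted p under 0.1 (adjusted p = 0.897 for each in WT and 1 in HIF1A-/- cells, and 0 of 8 at an unadjusted p under 0.05 in both). Background calls in that fit were 0.431% of gene bodies in WT, all of them higher, and 0% in HIF1A-/- cells. Once the replicate number entered the model, so that same-numbered libraries were treated as pairs, the estimates barely moved but their errors became smaller, and in WT 5 of 8 CCT genes fell, against 1.77% of all gene bodies. TCP1 fell by 31.6% (log2 fold change -0.55 ± 0.0847 SE, edgeR adjusted p = 0.0181), CCT3 by 30.3% (-0.52 ± 0.0859, adjusted p = 0.0232) and CCT6A by 29.8% (-0.51 ± 0.1001, adjusted p = 0.0453). CCT7 fell by 26.0% (adjusted p = 0.0722) and CCT4 by 21.0% (adjusted p = 0.0822). CCT5 had a log2 fold change of -0.36 and an edgeR adjusted p of 0.112, CCT8 -0.24 and 0.221, and CCT2 -0.20 and 0.318, so these 3 did not pass. The WT calls rest on few libraries: without WT normoxia replicate 2 or without WT hypoxia replicate 2 the same fit called 0 of 8, and 3 of 8 without WT hypoxia replicate 1 or without either HIF1A-/- hypoxia library.

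In HIF1A-/- cells the fit with the replicate number gave 95% intervals below 0 for all 8 genes, from -0.52 to -0.03 in CCT2 and from -0.74 to -0.35 in TCP1. After adjustment over all genes 0 of 8 passed, with TCP1 nearest at an edgeR adjusted p of 0.123, and that fit called 0.00599% of gene bodies lower. DESeq2 with the same term called 6 of 8 lower in WT, adding CCT5, and 3 of 8 in HIF1A-/- cells, namely TCP1, CCT3 and CCT4. The lowest DESeq2 adjusted p of the 8 was 0.000513 in WT and 0.00268 in HIF1A-/- cells, below the edgeR values of 0.0181 and 0.123. The shares of all gene bodies above are those of edgeR. None is given for DESeq2, so its counts have no background to be set against.

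The response was not called different between genotypes for any subunit. The WT log2 fold change minus that of HIF1A-/- cells ran from -0.14 in CCT3 to 0.08 in CCT4, and 0 of 8 were called, against 0.0539% of gene bodies. The 95% intervals were wide without the replicate term, from -1.03 to 1.04 for TCP1 and from -0.60 to 0.76 for CCT4. With the term 0 of 8 were called, against 0.384% of gene bodies, and the intervals were narrower, from -0.27 to 0.27 for TCP1 and from -0.45 to 0.19 for CCT6A. For TCP1 that interval does not reach the size of its response (-0.55 in both genotypes), whereas for CCT2 (-0.27 to 0.42) and CCT8 (-0.28 to 0.37) it does reach that of theirs in WT (-0.20 and -0.24). Between genotypes in the same condition, HIF1A-/- over WT was 0.02 to 0.18 on the log2 scale in normoxia, with 0 of 8 called against 1.78% of gene bodies. In hypoxia it was -0.04 to 0.21, with 0 of 8 called against 4.26%.

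In the TSS region the subunit genes had no common direction. Their sum was 1559 ± 16.2 normalised CPM (SD, n = 2) before and 1509 ± 27.9 after hypoxia in WT cells, and 1691 ± 64.0 before and 1652 ± 93.3 after in HIF1A-/- cells. CCT4 was at 218 and 210 in WT normoxia and 214 and 274 in WT hypoxia, and at 217 and 272, then 282 and 262, in HIF1A-/- cells. TCP1 was at 307 and 315, then 306 and 237, in WT and at 375 and 358, then 359 and 318, in HIF1A-/- cells. CCT6A, with the fewest TSS reads, was at 117 and 76.0 in WT normoxia and 78.0 and 71.5 in WT hypoxia, and at 76.7 and 82.3, then 92.8 and 77.9, in HIF1A-/- cells. Thus TCP1 was lower in hypoxia in all 4 pairs of libraries, while CCT4 was lower in 2 of the 4 and its groups overlapped in both genotypes. The higher CCT4 mean in hypoxia was carried by 1 hypoxia library in WT and 1 normoxia library in HIF1A-/- cells. The CCT6A value in WT was likewise carried by 1 normoxia library.

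The log2 fold changes in the TSS region ran from -0.37 in CCT6A to 0.19 in CCT4 in WT and from -0.14 in CCT5 to 0.15 in CCT4 in HIF1A-/- cells. The edgeR fit called 0 of 8 in any of the 5 comparisons, against 0.046% of TSS regions for hypoxia in WT, 0% for hypoxia in HIF1A-/- cells, 0.00657% for the difference between these responses, 0.657% for the genotypes in normoxia and 1.1% for the genotypes in hypoxia. The lowest p was that of CCT3 between genotypes in normoxia, with a log2 difference of 0.33, a 95% interval of 0.02 to 0.64 and an edgeR adjusted p of 0.583. Only TCP1 and CCT8 were lower in hypoxia in all 4 pairs, 2 of 8 against 10.1% of all TSS regions. Both hypoxia libraries lay below both normoxia libraries in WT for TCP1, CCT5 and CCT8, 3 of 8 against 17.5% of all TSS regions. In HIF1A-/- cells that held for 0 of 8, against 11.5%.

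The pausing index, the density of reads in the TSS region over that in the gene body with each table scaled on its own total, reports how much polymerase sits near the start relative to the body. Since each table has its own total, its absolute size has no meaning across studies, and the median over 14456 genes was 44.1 to 47.5 per library. CCT6A had the lowest index of the 8 genes in every library, 9.01 to 18.5, and CCT7 the highest, 68.3 to 152. CCT3 was at 22.5 and 30.0 in WT normoxia and 32.3 and 51.3 in WT hypoxia, and at 26.0 and 37.3, then 37.8 and 47.0, in HIF1A-/- cells. Both hypoxia values thus lay above both normoxia values in each genotype. CCT4 was at 44.3 and 56.0, then 56.6 and 89.7, in WT and at 38.5 and 65.2, then 70.3 and 79.2, in HIF1A-/- cells, again without overlap. These 2 were the only members without overlap in WT, against 18.3% of all genes, and in HIF1A-/- cells CCT5 joined them, 3 of 8 against 12%. The groups of the remaining members overlapped, as in TCP1 with 49.7 and 73.7, then 69.5 and 84.8, in WT.

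All 8 estimates of the change in pausing index were above 0 in both genotypes, from 0.13 in CCT6A to 0.62 in CCT3 on the log2 scale in WT and from 0.13 in CCT8 to 0.56 in CCT4 in HIF1A-/- cells. The gene body count is the denominator of the index, so this is not a measurement independent of the gene body result. No subunit passed, with 0 of 8 called against 0.193% of genes for hypoxia in WT, 0% in HIF1A-/- cells, 0.0207% for the difference between responses, 0.0966% for the genotypes in normoxia and 0.669% in hypoxia. CCT3 in WT came nearest, with a 95% interval of 0.07 to 1.17 and an edgeR adjusted p of 0.857, or 0.161 with the replicate number as a term. Within pairs, TCP1, CCT2, CCT3, CCT4, CCT5 and CCT7 had a higher index in hypoxia in all 4, 6 of 8 against 11.9% of all genes, and CCT6A and CCT8 in 3 of the 4.

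**Figure D4:**
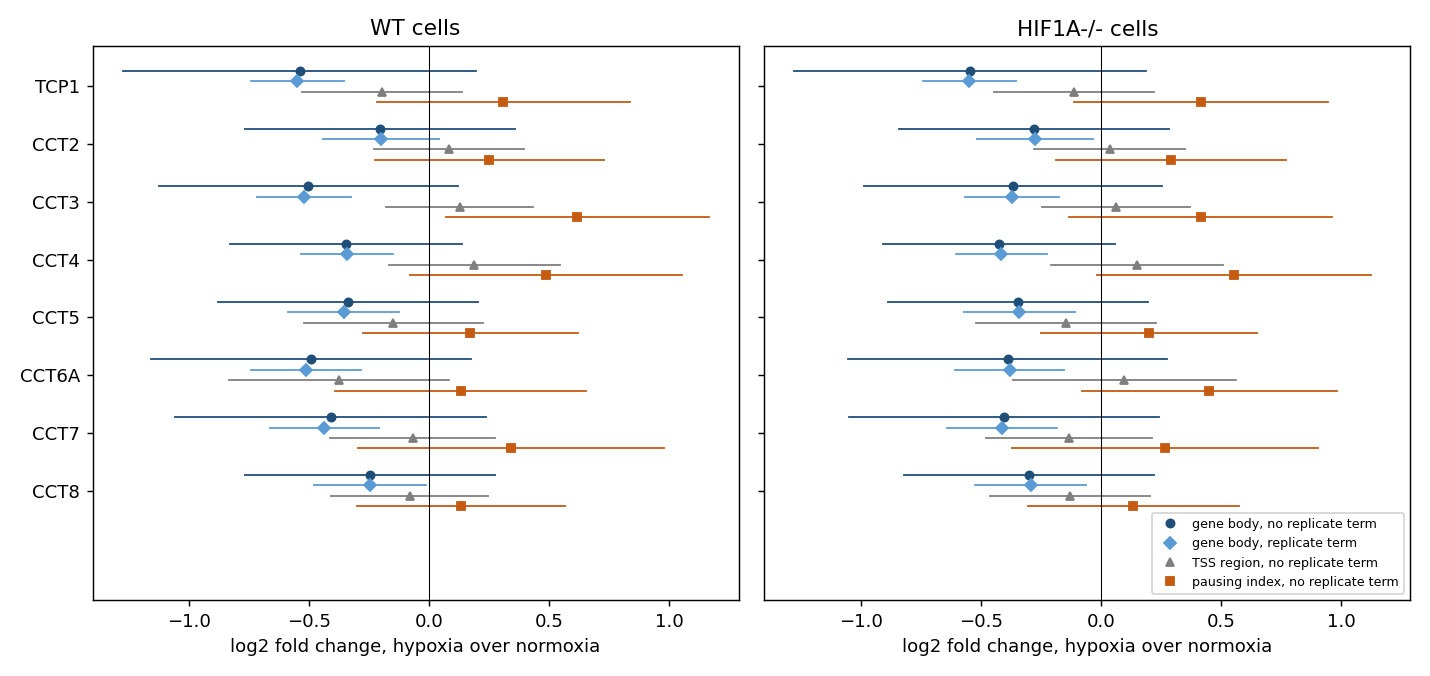
Log2 fold change of hypoxia over normoxia (x axis) with its 95% interval for each CCT subunit gene (y axis) in WT and HIF1A-/- cells, from the edgeR fits to the gene body (without and with the replicate number), to the TSS region and to the pausing index. Gene body estimates lie below 0 for all 8 genes in both genotypes, and their intervals exclude 0 for 7 genes in WT and 8 in HIF1A-/- cells in the fit with the replicate term.

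The subunit genes varied together from library to library. Pearson's r between 2 of them over the 8 libraries, on log2 gene body CPM, was 0.888 to 0.992 with a median of 0.955 over the 28 pairs. These points share libraries and both the replicate and the hypoxia differences described above, and the values are a description. CCT6A and TCP1 followed the mean of the other members most closely (0.992 and 0.991) and CCT2 least (0.939). Among 11574 other genes with a mean of at least 10 CPM, the pattern most like the mean of the 8 was that of HSPD1 (r = 0.996), which encodes the mitochondrial chaperonin HSP60, followed by RPN2, a subunit of the oligosaccharyltransferase complex (0.992), RIOK1, a kinase of ribosome maturation (0.991), EIF2B3, a subunit of a translation initiation factor (0.991), and ATP2A2, a calcium pump of the endoplasmic reticulum (0.988).

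HSPD1 was at 324 and 218 normalised CPM in WT normoxia and 229 and 149 in WT hypoxia, and at 377 and 229, then 247 and 152, in HIF1A-/- cells. Like the CCT genes, HSPD1 was lower in hypoxia than in normoxia in all 4 pairs and lower in replicate 2 than in replicate 1 of every group. That likeness follows from its choice by correlation over the same libraries and is no separate observation. With the replicate number as a term HSPD1 fell in WT (log2 fold change -0.53 ± 0.0820 SE, edgeR adjusted p = 0.0187) and had -0.60 and an adjusted p of 0.114 in HIF1A-/- cells. The WT call was lost without WT normoxia replicate 2 (adjusted p = 0.146) or WT hypoxia replicate 2 (0.136). HSPD1 was 1 of 4 tested chaperonin relatives, a list of CCT-like and mitochondrial chaperonin genes. Of these only HSPD1 was called for hypoxia, against 1.77% of gene bodies called lower in WT with the term. BBS10, a CCT-like gene of the ciliary BBSome pathway, was lower in HIF1A-/- than in WT cells both in normoxia (log2 difference -1.33, edgeR adjusted p = 0.0324) and in hypoxia (-1.28, adjusted p = 0.0262), 1 of 4 against the 1.78% and 4.26% above. These calls of the fit without the replicate term were lost in normoxia without WT normoxia replicate 2 or either HIF1A-/- normoxia library, and in hypoxia without WT hypoxia replicate 2 or either HIF1A-/- hypoxia library. With the term BBS10 passed in both conditions whichever library was left out. MKKS, also CCT-like, was called lower in HIF1A-/- hypoxia with the term only (-0.46, adjusted p = 0.0239), so that 2 of 4 were lower against 15.1% of gene bodies, and MKKS did not pass without WT hypoxia replicate 2 or HIF1A-/- hypoxia replicate 2.

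Heat shock response genes, the cytosolic chaperones and cochaperones that HSF1 drives, lay lower in hypoxia across the list. All 17 of 17 tested had a negative log2 fold change in both genotypes, with a median of -0.69 in WT and -0.63 in HIF1A-/- cells in the fit with the replicate term, beside medians of -0.02 and 0.00333 over all gene bodies. In WT 11 of 17 fell, against the 1.77% above. The list was written with earlier results of these data known, so this count is a description. In HIF1A-/- cells 0 of 17 passed, against 0.00599% of gene bodies called lower. Without the term 0 of 17 passed in either genotype, and 0 of 16686 gene bodies were called lower. Without WT normoxia replicate 1 the count in WT was 3, without WT normoxia replicate 2 it was 5, without WT hypoxia replicate 1 it was 6 and without WT hypoxia replicate 2 it was 1, while it stayed between 10 and 12 without any 1 of the HIF1A-/- libraries. HSPH1, a nucleotide exchange factor of the HSP70 chaperones, was at 336 and 136 normalised CPM in WT normoxia and 141 and 49.4 in WT hypoxia, and its log2 fold change was -1.34 (edgeR adjusted p = 0.0226). FKBP4, a cochaperone of HSP90, went from 125 and 81.3 to 78.1 and 39.3 (-0.86, adjusted p = 0.00891), and HSP90AA1, inducible HSP90, from 582 and 353 to 391 and 243 (-0.56, adjusted p = 0.0604). HSPH1 and HSP90AA1 did not pass without 3 and 4 of the WT libraries in turn, and FKBP4 without 1. For these 3 genes replicate 2 was again below replicate 1. HSPA8, constitutive HSC70, did not pass (adjusted p = 0.266), and its replicate 2 lay above its replicate 1 in WT normoxia, at 747 against 444. HSPA1B, an inducible HSP70, is nearly identical to HSPA1A, and its call is uncertain because reads that match both can be lost to the mapping quality filter. Between genotypes in hypoxia the fit with the term called 4 of 17 heat shock response genes higher in HIF1A-/- cells, against 13.1% of gene bodies, and 0 without WT hypoxia replicate 2 or HIF1A-/- hypoxia replicate 2.

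Few partners and clients of the chaperonin were called for hypoxia. The CCT partners are prefoldin subunits, phosducin-like cofactors, relatives of both and CCT6B, a further CCT subunit gene. Of these 12 of 13 were tested. With the replicate term 0 rose in WT hypoxia, against 3.73% of gene bodies, and 1 fell, against the 1.77% above. That gene was PFDN5, a prefoldin subunit with 13.8 and 9.27 normalised CPM in WT normoxia and 8.40 and 6.27 in WT hypoxia (log2 fold change -0.65, edgeR adjusted p = 0.0941), and it did not pass without any 1 of the 8 libraries or with library totals in place of TMM. The median of the 12 was -0.05. CCT6B did not share the decrease of the 8 subunit genes, at 9.96 and 12.1 in WT normoxia and 11.4 and 19.7 in WT hypoxia. In HIF1A-/- cells CCT6B went from 14.0 and 8.47 to 12.3 and 13.8. Its groups overlapped in both genotypes, and it was not called for hypoxia in either fit. Between genotypes in hypoxia PFDN5 was called higher in HIF1A-/- cells with the term (0.45, adjusted p = 0.0968), 1 of 12 against 13.1% of gene bodies, a call lost without 6 of the 8 libraries in turn. The CCT clients are actins, tubulins, WD-repeat proteins, cell cycle proteins, VHL, HDAC3 and STAT3. Of these 24 of 25 were tested and 0 passed for hypoxia in either genotype or fit. Without the term 0.431% of gene bodies passed in WT and 0% in HIF1A-/- cells. With it 3.73% rose and 1.77% fell in WT, while 5 rose and 1 fell of 16686 in HIF1A-/- cells. At such shares 0 of 24 says little about the clients. With the term their medians were -0.21 in WT and -0.03 in HIF1A-/- cells, beside -0.02 and 0.00333 over all gene bodies. Some clients were called between genotypes, in calls that rested on few libraries. In hypoxia, TUBB2A (log2 difference 1.10, edgeR adjusted p = 0.0809) and TUBB3 (0.74, adjusted p = 0.0547), both beta tubulins, were higher in HIF1A-/- than in WT cells, 2 of 24 in the fit without the replicate term, against 4.26% of gene bodies called in either direction. Neither passed when any WT library or either HIF1A-/- hypoxia library was left out. With the term 13 of 24 were higher and 0 lower, against the same 13.1% called higher, and the 13 became 7 without WT hypoxia replicate 2 and 1 without HIF1A-/- hypoxia replicate 1. TUBB3 was at 125 in both WT hypoxia libraries and at 207 and 211 in those of HIF1A-/- cells. In normoxia the fit with the term called TUBA1A (0.72, adjusted p = 0.0978) and TUBB3 (0.52, adjusted p = 0.0382) higher, 2 of 24 against 3.93%, a count of 0 to 4 with 1 library left out. TUBA1A was weakly transcribed, at 2.48 and 6.62 normalised CPM in WT normoxia and 4.74 and 9.85 in HIF1A-/- normoxia, and these groups overlap. In TSS regions in hypoxia 1 of 24 clients was called, ACTG1, against 1.1%, and with the term 5 of 24 were higher against 7.47%. For the 8 CCT genes these comparisons of the genotypes called 0 in either fit.

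**Figure D5:**
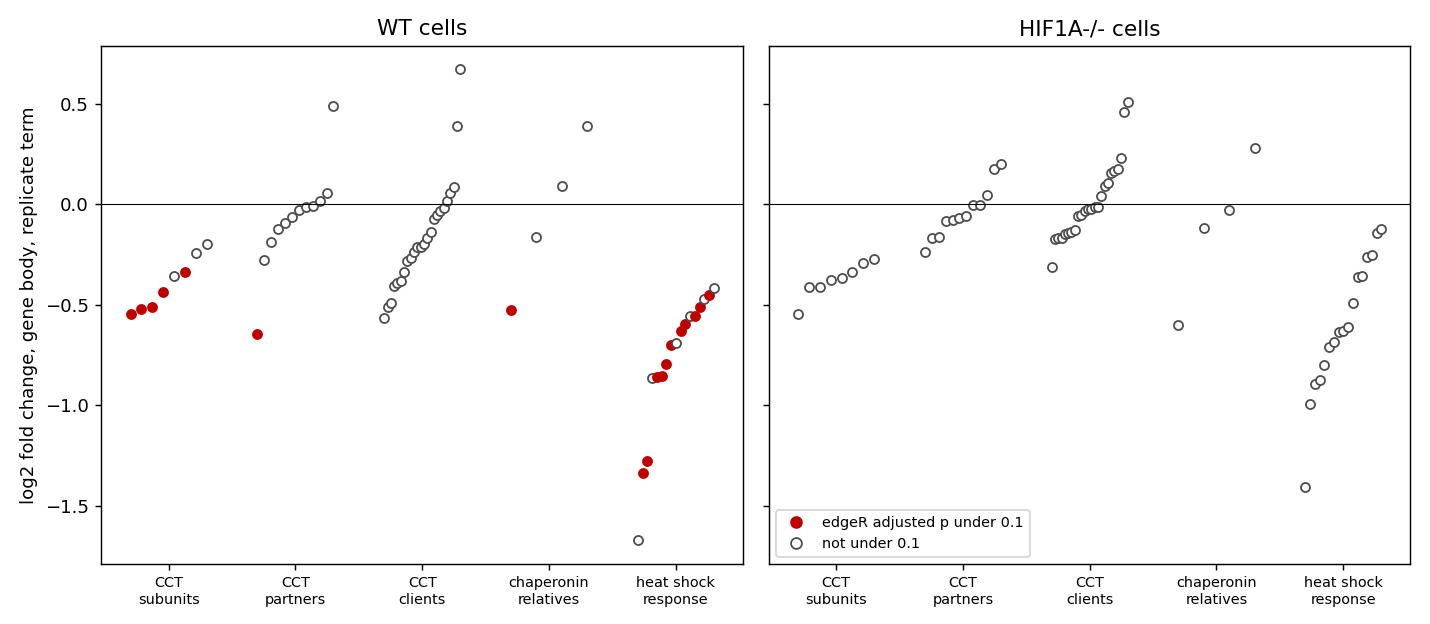
Gene body log2 fold change of hypoxia over normoxia (y axis) in WT and HIF1A-/- cells for each tested gene of 5 lists (x axis, sorted within a list), from the edgeR fit with the replicate number as a term, filled red where the adjusted p was under 0.1. The 8 CCT subunits and the 17 heat shock response genes lie below 0 in both genotypes, and partners and clients lie on both sides.

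PSPH and TSACC both begin within 1000 bases of a CCT gene on the opposite strand. PSPH, an enzyme of serine synthesis, starts 109 bases from CCT6A and had 158 and 144 normalised CPM in its gene body in WT normoxia and 154 and 142 in WT hypoxia, a log2 fold change of -0.03 (edgeR adjusted p = 0.829 with the replicate term). Its groups overlap and it did not share the decrease of CCT6A. TSACC, whose product binds a testis kinase, starts 486 bases from CCT3 and is weakly transcribed, at 8.38 and 9.60 in WT normoxia and 5.60 and 4.94 in WT hypoxia. With the replicate term TSACC fell (log2 fold change -0.78, edgeR adjusted p = 0.0978), as CCT3 did, but its replicate 2 was not below its replicate 1 in WT normoxia. The TSACC call was lost with library totals in place of TMM, and without WT normoxia replicate 2, either WT hypoxia library or either HIF1A-/- hypoxia library.

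Other annotated genes overlap several counted bodies. On the opposite strand ACAT2 overlaps the TCP1 body by 616 bases, a long noncoding RNA gene the CCT4 body by 17651 bases, most of its length, and others the CCT5 body by 1816 and the CCT8 body by 923 bases. On the same strand a noncoding gene overlaps the CCT8 body by 2023 bases. The libraries are strand-specific, but whether the counting used strand is not given in the sources used here, so reads of opposite-strand genes may not be separated from those of the CCT genes, and reads of the same-strand one cannot be.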

How the data were processed

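PRO-seq was measured in 8 libraries, 2 for each of 4 groups. Per the methods and the submitters' processing notes, reads were demultiplexed with bcl2fastq (v2.20.0.422), checked with FastQC (v0.11.5), merged over 2 runs, trimmed, and mapped to GRCh37/hg19 with HISAT2 (v2.1.0) without splicing. Alignments with a mapping quality over 10 were kept with SAMtools (v1.5). The authors deposited 2 tables of raw counts per gene, made with featureCounts from Subread (v1.6.2), for transcripts of at least 1500 bp, 1 TSS and the shortest gene body a gene.

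From these counts edgeR (v4.0.16, R v4.3.3) quasi-likelihood fits of the 4 group means over all 8 libraries, with TMM factors, were made for genes above 0.5 CPM in at least 2 libraries, 16686 gene bodies and 15212 TSS regions. Benjamini-Hochberg adjustment ran over every gene tested, and a call was made at an FDR of 10%. Change in pausing index was tested in 1 fit over both tables (14494 genes), with a term for each library and a TSS term for each group. Log2 differences within pairs used a prior count of 0.5. The scripts were tested on simulated counts. Replicates of a group differed by 21.2 or more chi-square units per degree of freedom in gene bodies and 5.38 or more in TSS regions, so none was a copy of another. At the depths given above, the spread between replicates and not counting error limited precision, and no counting interval is given.

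Pairing was checked from the data. Deviations from the group means correlated between same-numbered libraries at r = 0.467 to 0.749 in gene bodies and 0.174 to 0.414 in TSS regions over the 6 pairs of groups. The numbers were therefore taken as pairs, although the labels name no shared batch. With 2 libraries a group these 6 values are not independent, and the check cannot establish that same-numbered libraries were handled together. The WT hypoxia calls of CCT genes, HSPD1 and heat shock response genes depend on that assumption. The fit without the replicate number is the main one, and the fit with it is given where it changed a call or count reported here.

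The members and all lists were chosen with earlier results of these data known. All 8 members were named. A gene of the 4 lists (CCT partners, CCT clients, chaperonin relatives, heat shock response genes) was to be named where called in the fit without the replicate number, or else if among the 2 with the lowest p. Genes starting within 1000 bases on the opposite strand, the 5 genes most like the members' mean, HIF1A, PDK1 and PFKFB4 could also be named. List genes named for a call with the replicate number, CCT6B, HSPA8 and the genes that overlap or copy a member were chosen after their values were seen. VHL, HDAC3 and STAT3 are named only to describe their list. Alternatives were DESeq2 (v1.42.0), library totals without TMM, RLE factors, no filter beyond 1 count, the replicate number as a term, a joint total for the pausing index, and leaving out each library. Those applied to the fit with the replicate number were chosen after seeing the data. Exons and overlapping genes are from GENCODE v44 lifted to GRCh37.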

Additional observations from a re-analysis of the deposited data

How the results depend on the processing

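Of the 15 counts of CCT genes called over 3 measures and 5 comparisons, all 0 without the replicate block, 13 stayed at 0 under every alternative run. In WT hypoxia the gene body count moved to 5 of 8 with the replicate block and 6 with DESeq2 and the replicate block. In HIF1A-/- hypoxia it moved to 3 with DESeq2 and the replicate block. No share over all gene bodies is given for the DESeq2 counts here or below. The edgeR replicate block changed no other CCT call. Among alternatives to that blocked fit, chosen after seeing the data, leaving out 1 library gave 0 to 5 in WT, and the HIF1A-/- count of 0 became 1, TCP1, with no filter beyond 1 count and 3 with DESeq2. A group left with 1 library is assumed to vary like the others. All 8 gene body estimates stayed below 0 in WT under every setting, and in HIF1A-/- cells with the exception of CCT2 without HIF1A-/- normoxia replicate 1. Their median without the replicate block ranged with 1 library left out from -0.67 to -0.16 in WT (lowest without hypoxia replicate 1, highest without hypoxia replicate 2) and from -0.58 to -0.11 in HIF1A-/- cells (lowest without hypoxia replicate 1, highest without normoxia replicate 1).

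Leaving out 1 library turned the sign of 15 estimates, none of them called, with these lowest and highest log2 values. For the gene body they were -0.53 to 0.031 for CCT2 in HIF1A-/- cells and -0.10 to 0.034 for PSPH in WT. For the TSS region in WT they were -0.028 to 0.18 for CCT2, -0.0013 to 0.36 for CCT4 and -0.23 to 0.12 for CCT7. For the TSS region in HIF1A-/- cells they were -0.027 to 0.10 for CCT2, -0.028 to 0.15 for CCT3, -0.00079 to 0.32 for CCT4, -0.39 to 0.14 for CCT5, -0.031 to 0.22 for CCT6A and -0.30 to 0.028 for CCT8. For the pausing index they were -0.065 to 0.31 for CCT6A and -0.068 to 0.74 for CCT7 in WT, and -0.026 to 0.55 for CCT7 and -0.068 to 0.34 for CCT8 in HIF1A-/- cells. The sign of the difference between the genotypes' responses turned under at least 1 alternative for 8 of 8 genes in the gene body and the pausing index and 7 of 8 in the TSS region. With the joint total the median pausing index of all genes shifted to 0.19 in WT hypoxia and 0.11 in HIF1A-/- hypoxia, beside 0.50 and 0.48 for the CCT genes.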
